A study of Rattus norvegicus with 6 samples.

Results

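The 3 arrays described here carry renal cortex RNA of male Sprague-Dawley (Crl:CD(SD)) rats that had been given corn oil, the vehicle, for 4 weeks. They were chosen by their label alone (VC, corn oil) and are 3 of the 6 samples of the series. The other 3 samples come from rats given monuron and were not used, so no effect of any compound is described. The rats were bought at 5 weeks of age, the labels name 3 animals in the group, and the design text calls the replicates biological. The animals carried no transgene or deletion that the labels name. With 3 animals of 1 group there is no contrast to test, and every value below is a description.

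The cortex of the kidney holds the glomeruli, where podocytes, endothelium and mesangium filter the blood, and most of the proximal tubule, which takes back glucose, phosphate, amino acids and bicarbonate and secretes organic anions and cations. The thick ascending limb, distal convoluted tubule and connecting tubule follow, and in the collecting duct principal cells handle water and sodium while intercalated cells handle acid and base. Proximal tubule cells make glucose and live on fatty acids. In whole tissue, fewer cells of a type and less RNA per cell cannot be told apart.

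A level below is a probe's signal divided by the 75th percentile of its array over non-control probes, so that a level of 1 equals that percentile. Each gene is represented by its brightest probe, and errors are SD over n = 3 arrays. Different probes of one gene differed in brightness by a median of 4.23-fold over the 5675 genes with several probes, so levels of different genes are not an order of transcript abundance. A gene was called detected where its spot was flagged well above background.

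Detection and spread were as follows over the whole array. Of the 15645 genes with a named probe, 11268 (72.0%) were detected on all 3 arrays and 2973 (19.0%) on none. Replicate 1 had 43136 probes well above background, replicate 3 had 40538 and replicate 2 had 37454, and the lowest level with that flag was 0.0152, 0.0237 and 0.0359 in the same order. Faint genes therefore passed most often on replicate 1: 597 genes were detected on replicate 1 alone, and 540 were missed on replicate 2 alone. Signals of 3′ over 5′ control probes, which fall on opposite ends of one transcript, were alike on the 3 arrays at 5.19, 5.42 and 5.38 for Gapdh. For Pgk1 the ratios were far larger, at 45.7, 48.7 and 47.6.

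Promoters of proximal tubule genes are shown because the genes of that segment carry the brightest nephron signals below. Of 14 motifs searched on both strands, the AP-2 palindrome GCCNNNGGC is shown, a choice made after the counts were seen. It was in the promoters of 8 of the 17 proximal tubule S1 and S2 genes with a promoter in the table, among them Fbp1, Slc34a1, Slc5a2, Slc22a8, Lrp2 and Pck1, and in 15.1% of all 33469 promoters. Intercalated cell genes with a promoter had it in 4 of 11, and thick ascending limb genes in 4 of 11. Of 12 such hepatocyte genes, 1 had it, Alb. A gene was counted where any of its promoters matched, whereas the share of all is over single promoters. The gene counts and that share are therefore unlike measures. Tfap2b, a factor of the AP-2 family made in the distal nephron, had a level of 6.38 ± 0.848, and Hnf4a, a nuclear receptor of proximal tubule cells, one of 16.0 ± 0.798. Of the other motifs, those given here are the HNF4 core CAAAGTC and a longer HNF4 site that contains it, the TATA box TATAAA, the forkhead core TGTTTAC, the oestrogen-related receptor site TCAAGGTCA, the CCAAT box (its name is its letters), the metal response core TGCACNC, the GATA core AGATAA, the cAMP response element TGACGTCA and a serum response element, each in 0 to 4 of the 17 and in 0.0329% to 37.5% of all promoters. A match is a description of the letters, not a site. The 3 windows printed, from RefSeq on GRCr8, are those of a gluconeogenic enzyme, of the sodium-phosphate cotransporter and of the glucose transporter SGLT2. They run from 250 bases before to 50 after the start, 5′ to 3′, at chr17:2213457-2213756 (plus strand), chr17:9238934-9239233 (minus strand) and chr1:192277371-192277670 (plus strand), with the palindrome in capitals.
Fbp1: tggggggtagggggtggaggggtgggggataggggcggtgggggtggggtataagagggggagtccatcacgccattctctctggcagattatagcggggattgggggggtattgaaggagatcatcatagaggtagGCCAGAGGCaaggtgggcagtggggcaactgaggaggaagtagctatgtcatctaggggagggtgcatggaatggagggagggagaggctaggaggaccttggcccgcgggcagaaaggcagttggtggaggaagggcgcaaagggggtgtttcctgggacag
Slc34a1: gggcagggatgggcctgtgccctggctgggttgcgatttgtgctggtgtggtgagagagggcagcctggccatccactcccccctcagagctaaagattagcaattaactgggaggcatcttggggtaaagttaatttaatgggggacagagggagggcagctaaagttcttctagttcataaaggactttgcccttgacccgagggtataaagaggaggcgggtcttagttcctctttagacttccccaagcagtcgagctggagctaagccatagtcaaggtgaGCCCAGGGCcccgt
Slc5a2: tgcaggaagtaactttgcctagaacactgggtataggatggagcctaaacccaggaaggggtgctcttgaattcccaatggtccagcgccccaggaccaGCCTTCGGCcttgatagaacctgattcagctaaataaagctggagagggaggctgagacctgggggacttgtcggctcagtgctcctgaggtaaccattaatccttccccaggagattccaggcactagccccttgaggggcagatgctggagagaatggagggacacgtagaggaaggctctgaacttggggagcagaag

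The brightest signals came from proximal tubule metabolism, iron storage, ribosomes and mitochondria. Miox, myo-inositol oxygenase, an enzyme of the proximal tubule, had levels of 649.6, 714 and 745 on replicates 1 to 3 (703 ± 48.8). Ftl1 and Fth1, the light and heavy chains of ferritin, had mean levels of 703 ± 46.9 and 441 ± 3.62. Fbp1, fructose bisphosphatase of gluconeogenesis, stood at 579.5, 611 and 606. These 3 arrays lay close together for each of these genes, with the highest array 1.15, 1.14, 1.02 and 1.05 times the lowest for Miox, Ftl1, Fth1 and Fbp1.

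Metallothionein Mt1 (475 ± 37.0), the lysosomal proteases Ctsb (462 ± 36.0) and Ctsa (416 ± 19.0), and the fatty acid hydroxylase Cyp4a2 (452 ± 51.9) followed. The mitochondrial genes Atp5f1a (479.6 ± 54.0), a subunit of ATP synthase, and Cox6a1 (446 ± 33.0), of cytochrome oxidase, were among them. Slc13a3, the dicarboxylate transporter of the basolateral membrane, had a level of 407 ± 29.7, and the arachidonic acid epoxygenase Cyp2c23 one of 383.5 ± 23.8. Rpl41, Rplp1, Ubb, Ppia, Chchd2l3 and Ceacam9 were also on the list. Several of these have near-identical copies, and Ceacam9 was well above background with only 1 of its 2 probes, so which transcript gave the signal is uncertain.

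In 18 of the 20 brightest genes the highest array was less than 1.5 times the lowest. Kap, the kidney androgen-regulated protein of the proximal tubule, had levels of 321, 616 and 324, with replicate 2 alone high (1.92-fold). Its second probe gave 2.44-fold. Taking the mean of a gene's probes instead of the brightest kept 11 of these 20 genes.

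**Figure D1:**
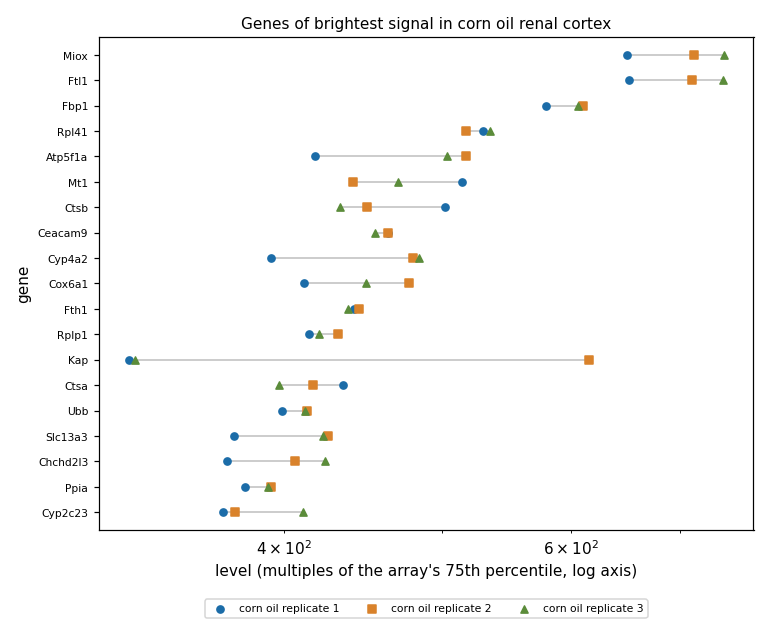
Levels of 19 of the 20 brightest named genes on each corn oil array (points; log axis, in multiples of the array's 75th percentile), with a line from the lowest to the highest array. Kap has a visibly wider line than the others, at 1.92-fold.

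Genes that mark nephron segments were nearly all detected. The lists from the podocyte to the intercalated cell hold 95 genes, of which 88 had a named probe and 84 (95.5%) were well above background on all 3 arrays, against 72.0% of all named genes. The 3 genes detected on no array were Slc36a2, Pvalb and Nos1, and Ptgs2 was detected on 2. Genes of other tissues (adrenal cortex, pancreas acinus, skeletal muscle, brain and testis, and urothelium) were detected on all arrays for 8 of 32. Both kinds of list were chosen with earlier results of these data known, so these shares may in part reflect that choice. The 72.0% of all named genes also takes in 1169 olfactory receptors, of which 11.4% were detected.

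All 14 podocyte genes were detected on all arrays, with a range between the highest and lowest array of 1.04 to 1.54-fold. Podxl, the sialomucin of the foot process, had levels of 24.3, 19.6 and 21.2. Wt1, the transcription factor of the podocyte, stood at 1.02 ± 0.0774. Nphs1, nephrin, gave 2.22 ± 0.191, and Synpo, synaptopodin, 0.156 ± 0.00282. Of 11 endothelial genes, 10 had a probe and all 10 were detected, among them Kdr, the VEGF receptor (25.1 ± 1.90), and Plvap, of the fenestral diaphragm (47.8 ± 6.73). Their median SD of log2 level over the arrays was 0.0887, under the 0.106 of all detected genes.

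The proximal tubule S1 and S2 genes were detected on every array for 18 of 18, and 0 of them had a 2-fold range, where 3.98% of all detected genes had one. Slc34a1, the sodium-phosphate cotransporter whose promoter is printed above, had levels of 362, 382 and 379. Slc5a2, the glucose transporter SGLT2, had levels of 169.9, 191 and 185. The organic anion transporters Slc22a6 (OAT1) and Slc22a8 (OAT3) gave 306.5 ± 27.1 and 260.4 ± 14.8. For these 4 genes the highest array was 1.06 to 1.19 times the lowest, and replicate 1 was lowest for Slc34a1 and Slc5a2. Of the 18 genes, 8 were lowest on replicate 1 (29.7% of all detected genes). On replicate 2, 5 were lowest (32.9%), and on replicate 3, 5 (37.4%).

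Of the endocytic receptors of the same cells, Lrp2, megalin, had levels of 93.7, 88.5 and 105.6, and Cubn, cubilin, had levels of 68.2, 51.3 and 63.2, with a wider range of 1.33-fold. Slc4a4, the basolateral bicarbonate transporter, stood at 50.4 ± 2.62, and Slc6a19, B0AT1, at 11.4 ± 0.359. The widest range of the list was in Slc22a2, the organic cation transporter OCT2, with levels of 11.7, 19.1 and 14.6 (1.64-fold), highest on replicate 2. Slc5a12, a lactate transporter, followed with 5.14, 4.57 and 3.36 (1.53-fold), lowest on replicate 3. The list's median SD of log2 was 0.118.

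In a wider list of proximal solute carriers, 29 of 30 genes had a probe and all 29 were detected. Sulfate transporter Slc26a1 gave 71.2 ± 2.35, Slc7a9, the light chain of the cystine transporter, 54.9 ± 2.93, and Slc13a2, the apical dicarboxylate transporter, 46.8 ± 3.58. Slc5a8, a sodium-coupled monocarboxylate transporter, had the widest range at 4.57, 2.76 and 3.72 (1.66-fold). Aqp1, the water channel of proximal tubule and thin limb, had levels of 130.9, 112 and 128. Aqp7, the glycerol channel of the S3 segment, had levels of 15.2, 15.3 and 15.2.

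Of the proximal tubule S3 list, 8 of the 9 genes with a probe were detected, and 6 of these 8 were lowest on replicate 1, where 29.7% of all detected genes were lowest. The count was 3 of 8 without scaling, where the share of all genes was 14.9%, and 4 of 8 with quantile normalization, where it was 28.6%. Slc7a13, an acidic amino acid transporter of the S3 segment, had levels of 10.1, 24.3 and 22.9, so that replicate 1 was less than the other 2 by over 2-fold (range 2.40-fold). Both of its probes had such a range (2.40 and 2.68-fold). Acy3, aminoacylase 3, and Slc3a1, the heavy chain of the cystine transporter, had levels of 281 ± 9.94 and 231 ± 22.3. Slc22a7, OAT2, had 0.101, 0.166 and 0.187, again lowest on replicate 1. Slc36a2, a proline and glycine transporter, was well above background on 0 arrays.

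Gluconeogenesis genes had among the steadiest levels of any list by the median SD of log2, at 0.071. Their ranges went from 1.05 to 1.72-fold. Pck1, phosphoenolpyruvate carboxykinase, had levels of 237, 265 and 246, and G6pc1, glucose-6-phosphatase, 182, 215 and 189.6. Pc, pyruvate carboxylase, stood at 230.2 ± 5.74. Of the 10 genes with a probe, 7 were lowest on replicate 1 (29.7% of all detected genes). Without scaling 2 were, against 14.9% of all genes, and with spike-in scaling 10 were, against 50.2%. Genes of fatty acid oxidation were detected for 18 of 18, among them Acadm, the medium-chain dehydrogenase (81.7 ± 7.47), and Acaa1a, a peroxisomal thiolase (89.4 ± 2.25).

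The sodium pump, which drives transport in all these segments, had bright signals for its beta subunit Atp1b1 (291 ± 38.4) and its regulator Fxyd2 (176 ± 3.69). Atp1a4, a catalytic subunit of the testis, was well above background on 0 arrays.

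Thick ascending limb genes were detected for all 12 with a probe, and 9 of them were highest on replicate 2, where 31.7% of all detected genes were highest. Umod, uromodulin, the segment's secreted protein, had levels of 289.6, 369 and 274. Slc12a1, the NKCC2 cotransporter, had levels of 16.4, 21.0 and 17.96. In Umod and Slc12a1 replicate 2 stood above the other 2 arrays, by a range of 1.35 and 1.28-fold. Egf, made in this segment and the distal tubule, had levels of 40.8, 42.8 and 33.9, and Casr, the calcium sensor, 15.6, 17.3 and 14.3. Of the list's 14 other detected probes, those that are not a gene's brightest, 7 were highest on replicate 2, against 26.7% of the 8044 such probes of all named genes. Without any scaling between arrays, 6 of the 12 genes were highest on replicate 2, against 21.4% of all genes.

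In the distal convoluted tubule, Slc12a3, the thiazide-sensitive cotransporter, had levels of 31.5, 22.04 and 25.2, highest on replicate 1 (1.43-fold). Wnk4, the kinase that controls it, stood at 1.69 ± 0.0493. Pvalb, parvalbumin, a calcium buffer of this segment in rodents, was well above background on 0 arrays. In the connecting tubule, Klk1, tissue kallikrein, had levels of 212.5, 188 and 163, and Calb1, calbindin, 4.51, 5.08 and 3.64. S100g, the small calcium-binding calbindin, had levels of 3.38, 6.12 and 4.29 (1.81-fold), highest on replicate 2. Of the 6 connecting tubule genes, 4 were highest on replicate 2 (31.7% of all detected genes) and 4 lowest on replicate 3 (37.4%). The macula densa was represented by 2 genes with a probe, Nos1 on 0 arrays and Ptgs2 on 2, so the list gives no level.

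All 8 principal cell genes with a probe were lowest on replicate 3, where 37.4% of all detected genes were lowest, and by small amounts. Aqp2, the vasopressin-regulated water channel, had levels of 97.4, 121 and 92.8, and Aqp3, its basolateral partner, 36.8, 31.3 and 27.6. Hsd11b2, which shields the mineralocorticoid receptor from glucocorticoids, had levels of 47.5, 53.6 and 40.3. The sodium channel subunit Scnn1g stood at 5.33, 5.25 and 4.27, and Scnn1b at 19.2, 18.1 and 16.7. The highest array was 1.097 to 1.38 times the lowest over the 8 genes. Of their 6 other detected probes, 3 were lowest on replicate 3, against 37.7% of such probes of all named genes, so the order rested on the brightest probes.

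Intercalated cell genes had a wider range. All 14 were detected on every array and all 14 were lowest on replicate 3 (37.4% of all detected genes), with a median SD of log2 of 0.267 against 0.106 for all genes. Foxi1, the transcription factor of these cells, had levels of 12.3, 12.4 and 7.13. Rhcg, an ammonia channel, had levels of 9.49, 9.10 and 5.56. Slc4a1, the chloride-bicarbonate exchanger AE1 of acid-secreting cells, had levels of 11.0, 8.40 and 5.85. Replicates 1 and 2 were close for Foxi1 and Rhcg and replicate 3 stood below both, whereas Slc4a1 had 3 separate levels (1.88-fold).

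Slc26a4, pendrin, the exchanger of base-secreting cells, was the least spread of the list, with levels of 53.7, 53.4 and 45.4 (1.18-fold). The proton pump subunits Atp6v1g3 and Atp6v1b1, found in these cells, gave 88.9, 86.0 and 69.2 and 17.0, 16.9 and 12.2. Dmrt2, a transcription factor of intercalated cells, had 0.937, 1.83 and 0.655 (2.79-fold), high on replicate 2 as well as lowest on replicate 3. Of 12 other detected probes of the list, 11 were lowest on replicate 3, against 37.7% of such probes of all named genes. Between 13 and 14 of the 14 genes were lowest on replicate 3 under each scaling tried. With quantile normalization 13 were, against 37.4% of all genes, and with spike-in scaling 13, against 23.1%. All 14 were lowest there without scaling (49.9% of all genes) and with median scaling (45.4%). The spread rested on that array: without replicate 3 the list's median SD was 0.0942.

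Of the proton pump subunits shared by all cells, Atp6v0c (45.7 ± 0.759) and Atp6v0e1 (33.2 ± 0.508) were nearly level between arrays. The whole list of 17 had a median SD of log2 of 0.0871, and its ranges went from 1.03 to 1.43-fold. Of the 17, 9 were lowest on replicate 3 (37.4% of all detected genes) and 1 was highest there (30.0%). On replicate 1, 11 were highest (38.3%).

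**Figure D2:**
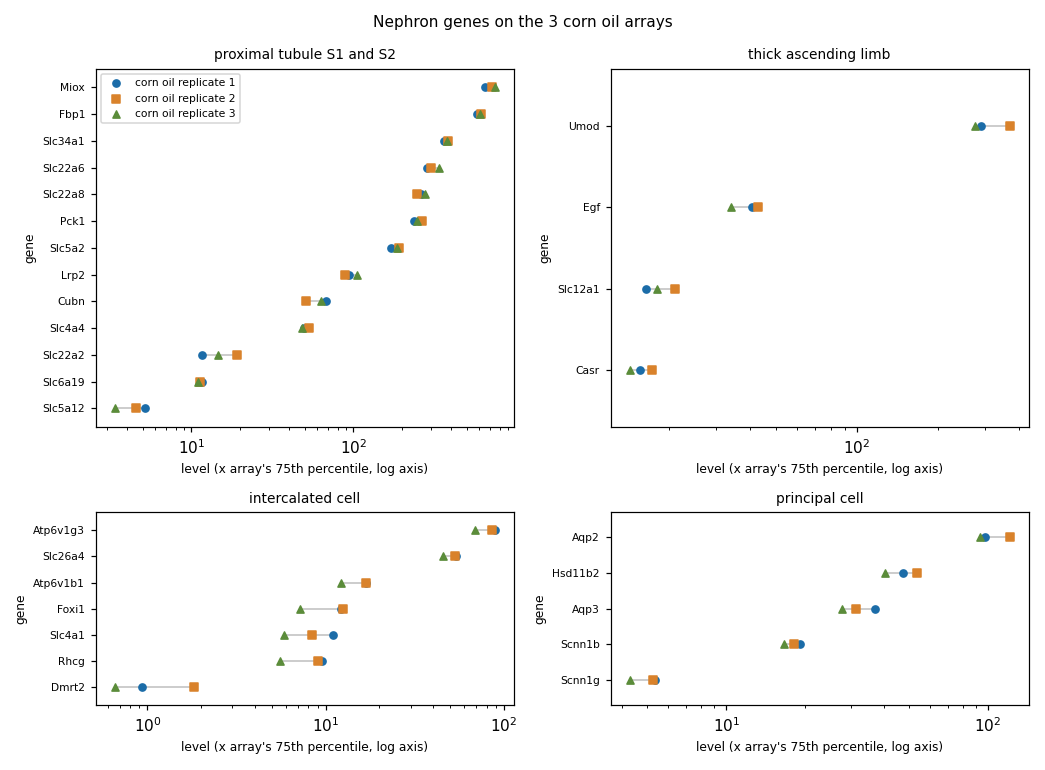
Levels of the genes named here from 4 nephron lists on each corn oil array (log axes, in multiples of the array's 75th percentile), with a line from the lowest to the highest array. In the intercalated cell panel the replicate 3 triangle is leftmost for all 7 genes drawn, and in the proximal tubule panel no array is at one end throughout.

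Macrophage and neutrophil, red cell and fibroblast genes detected on all arrays were highest on replicate 3. Of the macrophage and neutrophil genes, 9 of 9 detected on all arrays were highest on replicate 3 (30.0% of all detected genes), as were 6 of 6 other probes (28.8% of such probes of all named genes). Lyz2, lysozyme of myeloid cells, had levels of 66.3, 54.9 and 94.7, and C1qb, a complement subunit of macrophages, 7.84, 7.99 and 10.5. Adgre1, the macrophage antigen F4/80, had levels of 0.652, 0.752 and 2.60 (3.99-fold), a single probe. Of the 9, 5 were lowest on replicate 2 (32.9% of all detected genes). The list's summed level was 82.2, 71.0 and 118 on replicates 1 to 3, most of it from Lyz2. That of the intercalated cell list was 223, 217 and 168.5, most of it from Atp6v1g3 and Slc26a4. A sum follows its brightest probes, so it does not stand for every gene of a list. The part of one list in the other was not tested. Lymphocyte genes were faint, with 3 of 5 detected on all arrays, 1 of them highest on each array.

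The red cell list had 7 of 7 genes highest on replicate 3, where 30.0% of all detected genes were highest. Hba-a1, alpha globin, had levels of 322, 368 and 455, Hbb, beta globin, 153.5, 179 and 207, and Alas2, the red cell heme enzyme, 1.42, 1.501 and 2.03. Globin probes may read several near-identical copies. Slc4a1, which red cell precursors also make, went the other way, as given above. Of the fibroblast genes, 5 of 5 were highest on replicate 3 (30.0% of all detected genes), among them Dcn, decorin (7.21, 5.23 and 9.91), and Col1a1, a collagen chain (1.85, 1.63 and 2.79). Lum, lumican, was well above background on 0 arrays.

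Hepatocyte genes had the widest spread of the lists with at least 5 detected genes, with a median SD of log2 of 0.801. Of 16 genes, 10 were detected on all arrays (72.0% of all named genes), 3 on 1 or 2 and 3 on none (19.0%). Of the 10, 6 had a 2-fold range, where 3.98% of all detected genes had one. Alb, albumin, had levels of 1.33, 1.09 and 6.34 (5.83-fold), and its 3 probes ranged from 3.85 to 5.83-fold. Ttr, transthyretin, had levels of 0.947, 0.556 and 4.34 (7.81-fold), with 7.75-fold on its other probe. Replicate 3 was alone high in both. Serpina1, the protease inhibitor, was detected on 2 arrays, with levels of 0.0852, 0.0288 and 0.426.

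Of the 10 genes, 7 were highest on replicate 3 (30.0% of all detected genes) and 3 on replicate 2. Cyp2c11, the male-specific liver P450, had levels of 0.0774, 1.31 and 0.191 (16.9-fold), and F2, prothrombin, 1.17, 3.91 and 2.86 (3.34-fold), both highest on replicate 2. Apob, an apolipoprotein, was lowest on replicate 3, at 0.550 after 0.692 and 0.784. Tat, Cps1 and Cyp1a2, enzymes of hepatocytes, were well above background on 0 arrays. The source of these transcripts was not tested. Without replicate 3 the list's median SD was 0.176.

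**Figure D3:**
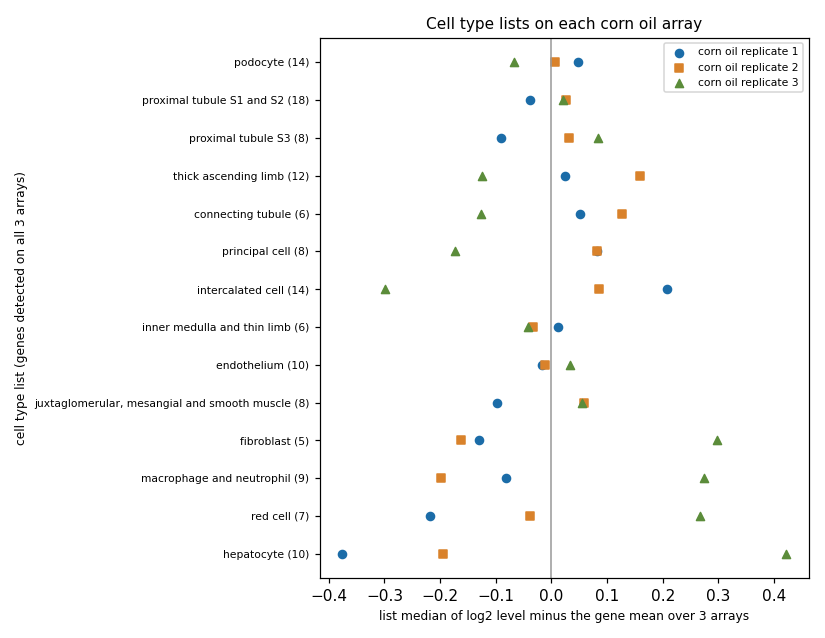
For each cell type list with at least 5 detected genes, the median over its genes of the log2 level on each corn oil array minus the gene's mean over the 3 arrays. Replicate 3 lies at -0.30 for intercalated cell genes and at 0.42 for hepatocyte genes, and the 3 arrays lie together for endothelium.

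Further transcripts of neighbouring genes, named after their values were seen, showed the same single high array. Mup5, a major urinary protein, had levels of 0.572, 0.358 and 2.82, and Mup4l4 of the same cluster 0.896, 0.509 and 4.10. Kng1 and Kng2, the kininogens, had levels of 0.142, 0.0959 and 0.860 and of 0.179, 0.142 and 1.14. These families hold close copies that can share signal. Elsewhere, Slco1a1, an organic anion uptake transporter, was 0.676, 2.33 and 1.57, and Slco1a3 of the same cluster 2.71, 9.37 and 6.26, lowest on replicate 1. Of the 11240 neighbouring pairs of detected genes, 46 had both members at a 2-fold range, and in 28 of these the same arrays were highest and lowest. Of all detected genes 3.98% had such a range, and the count for pairs that are not neighbours was not computed. The 28 include Mup and kininogen pairs, which may share signal, and also pairs of unlike names such as Crabp1 and Ireb2. The source of the agreement was not tested.

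Over all 11262 detected genes without an outlying spot, the highest array was a median of 1.15 times the lowest, and the median SD of log2 was 0.106. Pearson's r of log2 levels over genes, which are not independent, was 0.991 to 0.992 for the 3 pairs of arrays. A range of 2-fold or more was seen in 448 genes (3.98%) and of 4-fold or more in 104. In genes under a level of 0.1 the median SD was 0.229 and 10.2% had a 2-fold range, while in the 234 genes of level 100 or more the median SD was 0.065 and 1.28% had one. Spots of one probe repeated on the same array, for the Gapdh and Pgk1 controls, had an SD of log2 between 0.0255 and 0.07. Replicate 3 was at least 2-fold above both other arrays in 85 genes, replicate 2 in 61 and replicate 1 in 24, and at least 2-fold below both in 20, 29 and 51. Of the 137 genes of 2-fold range with several detected probes, 70 had that range on every probe with the same array standing apart.

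The 25 genes of widest range were mostly faint, 17 of them with a mean level under 1. Ubd, the ubiquitin-like modifier induced by interferon, had levels of 4.11, 0.111 and 3.92, so that replicate 2 alone was low (37.1-fold). Akr1b10 and Akr1b8, aldo-keto reductases that lie next to each other, were low on the same array, at 3.62, 0.247 and 3.89 and at 4.96, 0.695 and 9.07. The crystallin genes Cryga and Crygd were also low there, Cryga at 14.5, 1.14 and 14.6. Pairs of such close copies may share signal.

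Others were high on 1 array. Msgn1, a transcription factor of the early mesoderm, had levels of 0.0430, 1.12 and 0.0288 (38.8-fold), and Sdr42e1, a short-chain dehydrogenase, 0.0249, 0.823 and 0.0775, both high on replicate 2. The other probes of Msgn1 were well above background on 0 arrays, with levels of 0.009 and 0.01 on replicate 2. Cfap45, a protein of motile cilia, had levels of 0.0894, 0.0713 and 2.28, and Serpina3n, an acute-phase inhibitor, 0.215, 0.173 and 1.69, both high on replicate 3. Klk1c10, a kallikrein, was 2.23, 0.0730 and 0.478. Sorcs2, a sortilin receptor, was low on replicate 1 alone at 1.103, 12.1 and 8.55. Its other probes were well above background on 0 and 1 arrays.

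Mansc4, Cpamd8, Mug1l1, Mug1, Prkaa1 and Rup2 were highest on replicate 3, and Chit1, Tmprss3, Or2ab1, Hormad2, Scgb1c1, Lpal2 and Adra1d on replicate 2. The other probe of Or2ab1 and that of Lpal2 were well above background on 0 arrays. Those of Mug1l1 and Rup2 were so on 2 arrays, and were also highest on replicate 3. Of the 25 genes, 7 had several detected probes, and in 4 of these (Akr1b10, Hormad2, Mug1 and Scgb1c1) every probe had a range of at least 2-fold. In the other 3 a probe did not: 1.85-fold for Chit1, 1.15-fold for Tmprss3 and 1.18-fold for Crygd, against 25.4, 20.3 and 13.8-fold on the brightest.

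**Figure D4:**
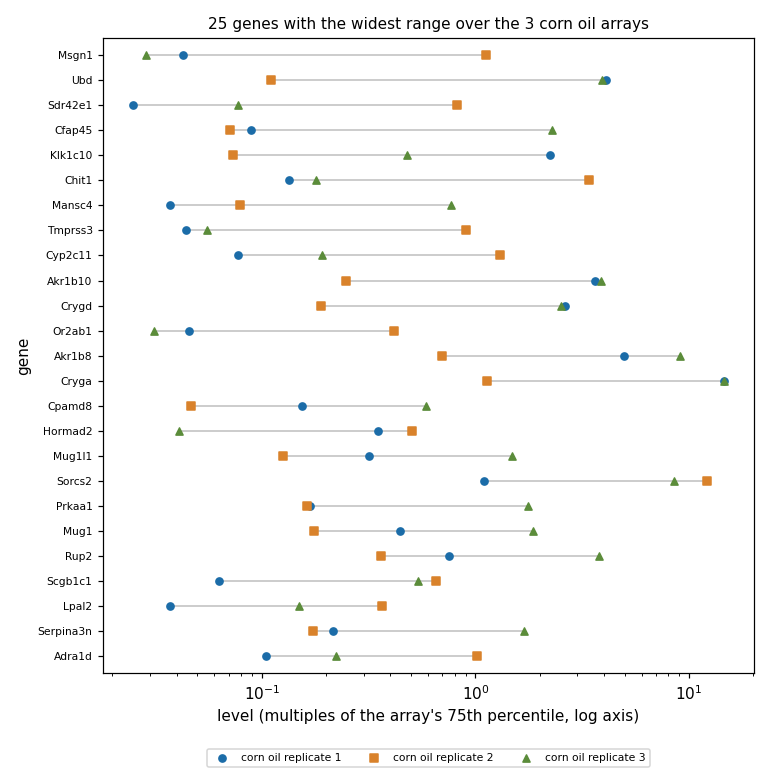
Levels of the 25 genes with the largest ratio of highest to lowest array on each corn oil array (log axis, in multiples of the array's 75th percentile). For most genes 1 array stands away from the other 2, as for Ubd on replicate 2 at 0.111 against 4.11 and 3.92.

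At the other end, 15 genes of level 1 or more had ranges of 1.002 to 1.006-fold. They include Eif2s2, a translation initiation factor (25.2, 25.2 and 25.2), Dbi, the acyl-CoA binding protein (132.4, 132.8 and 132.3), Eef1b2, an elongation factor (67.0, 67.3 and 67.2), and Aqp7. The others are Fbxo25, Pcnx1, Tmem138, Copg1, Ufd1, Cops5, Med17, Gne, Smim20, Pop7 and Sall3. Their SDs of log2, 0.002 to 0.004, lie below those of repeated spots, so their order is finer than the assay resolves, and another probe of Sall3 ranged 1.55-fold.

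Housekeeping lists were steady as groups. Ribosomal proteins had a median SD of log2 of 0.0381, with Rpl13a at 129.5, 128.5 and 130.3. Respiratory chain genes had 0.0616, and 22 of 26 were highest on replicate 2 (31.7% of all detected genes), by small amounts. Cox4i1 had levels of 237, 252 and 250.3, and Sdha, of complex II, 131, 147 and 139. Of 16 other probes of these genes 9 were highest on replicate 2, against 26.7% of such probes of all named genes. Of the 26 genes, 19 were highest there with quantile normalization (30.3% of all genes) and with spike-in scaling (35.2%), 15 with no scaling (21.4%) and 16 with normexp (31.0%).

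Immediate early genes, which stimuli induce within minutes, were less steady, with a median SD of log2 of 0.252. Heat shock, antioxidant and tubule injury genes had medians of 0.0742, 0.0856 and 0.0973, under the 0.106 of all detected genes. Of the 10 detected injury genes, 2 had a 2-fold range (3.98% of all detected genes), the widest being 2.6-fold. Of the 17 antioxidant genes, 1 had one. Of 16 detected immediate early genes, 9 were highest on replicate 1 (38.3% of all detected genes) and 10 lowest on replicate 3 (37.4%), and 5 had a 2-fold range (3.98%). The count highest on replicate 1 was 8 with spike-in scaling (19.4% of all genes) and 14 without scaling (60.8%), and that lowest on replicate 3 was 10 in both (23.1% and 49.9%). Zfp36, which destabilises cytokine messages, had levels of 0.355, 0.219 and 0.111, Nr4a1, an inducible nuclear receptor, 3.21, 2.10 and 1.40, and Ccn1, a secreted matrix protein, 3.33, 3.36 and 1.37. Jun, a subunit of AP-1, had 11.8, 12.0 and 6.68. Replicate 3 was lowest for all 4, but Junb was highest there, at 5.35, 5.10 and 6.91. Fos was detected on 2 arrays.

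Among the antioxidant genes, Gpx1 and Gpx3, the cellular and secreted glutathione peroxidases, had levels of 336 ± 10.9 and 313 ± 18.7, Sod1 264 ± 12.4, and Cat, catalase, 7.58 ± 0.0501. Gstm1, a glutathione transferase, stood apart with 0.659, 3.57 and 2.76 (5.41-fold), low on replicate 1, on a single probe. Among the injury genes, Havcr1, KIM-1, was detected on 2 arrays, and Lcn2, NGAL, had levels of 0.326, 0.243 and 0.162 (2.01-fold). Clu, clusterin, was 12.4, 17.1 and 9.36 (1.82-fold), with both probes agreeing at 1.82 and 1.84-fold. Vim, vimentin, gave 1.82 ± 0.0628.

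Mitosis genes were detected for 11 of 13 with a probe, such as Mki67 at 0.850 ± 0.0302, with a median SD of log2 of 0.0798. Clock genes had 1 member with a 2-fold range among 12 detected: Nr1d1, the repressor REV-ERB alpha, at 0.123, 0.140 and 0.304, high on replicate 3. Dbp, a clock output factor, stood at 10.4 ± 0.719.

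Detection differed among gene families, set against 72.0% of all named genes. Subunits of respiratory complex I were detected for 38 of 38, ribosomal proteins for 87 of 91 (95.6%) and zinc finger genes for 155 of 171 (90.6%). Solute carriers were detected for 261 of 329 (79.3%), the brightest being Slc13a3, Slc34a1 and Slc22a6. Cytochromes P450 were detected for 34 of 68, with Cyp4a2, Cyp2c23 and Cyp4a8 brightest, and claudins for 17 of 22, with Cldn2, the cation pore of the proximal tubule, at 8.66 ± 0.647.

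Sensory receptors were mostly undetected: olfactory receptors passed for 133 of 1169 (11.4%), vomeronasal receptors for 15 of 116 (12.9%) and taste receptors for 2 of 34 (5.88%). A few were not faint: Or2ak6 had levels of 7.77, 8.88 and 9.18, and Vom2r34 8.04, 7.67 and 7.88, alike on all arrays. Their second probes were also well above background. Among homeobox Hox genes, 15 of 24 passed, with Hoxb7, of the collecting duct lineage, at 13.5 ± 1.02. Keratins passed for 15 of 45, led by Krt7 (19.3 ± 1.09).

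**Figure D5:**
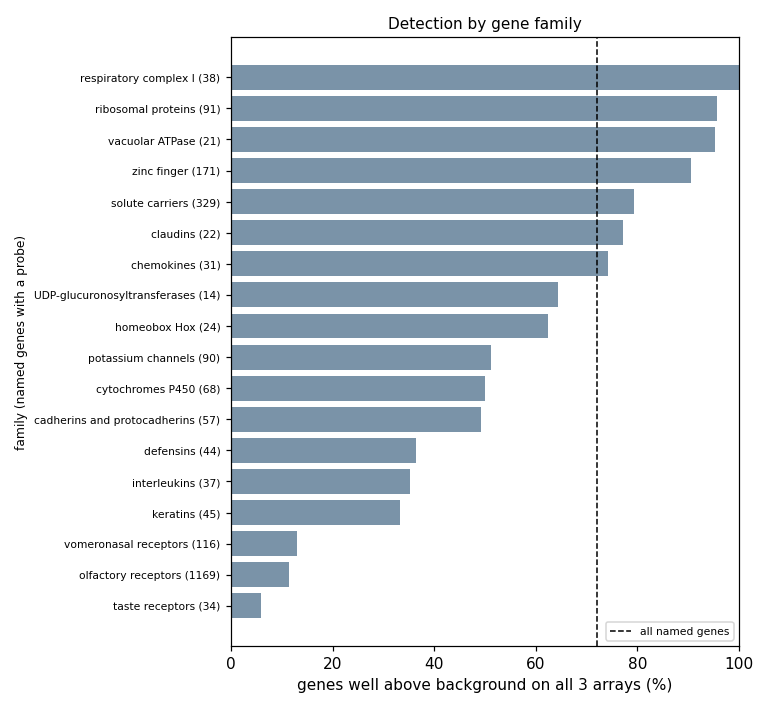
Share of each family's named genes that were well above background on all 3 corn oil arrays (bars, in percent; the number of genes with a probe in brackets), with the share over all named genes as a dashed line. The shares run from 5.88% for taste receptors to 100% for respiratory complex I, and the line stands at 72.0%.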

How the data were processed

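Renal cortex RNA of 3 corn oil rats was labelled with Cy3 and hybridised to 1-colour Agilent arrays, which shared a slide, per the file headers. Spot intensity (processed signal, linear scale) was extracted by the authors in Feature Extraction 10.7 of Agilent, as the submitters' processing notes name it, and is deposited with flags for spots well above background and outliers. The 1439 control spots were left out, as were feature outliers (0, 32 and 17 spots on replicates 1 to 3); 0 spots were saturated. The processed signal was divided by the array's 75th percentile (887, 837 and 825 over 61537 probes) in Python 3.11.15. A second deposited table of the authors holds ratio values, which equal the signal over 1 constant per array within 0.0497% for values of at least 0.1. Its column medians were 0.109, 0.111 and 0.112. Accessions were matched to a RefSeq table (GRCr8), naming 28206 probes (45.8%) and 15645 symbols. The genome build behind the array annotation differs, so coordinates are those of RefSeq promoters alone.

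A gene is its brightest probe by mean over the arrays. Of the 11268 detected genes, the 11262 without an outlying spot entered the spread. No contrast was fitted and no p-value computed, since 1 group is described. The genes named were the 20 brightest, the 25 of widest and the 15 of smallest spread (level of at least 1), members of 41 lists and up to 3 genes a family. The members and lists were chosen with earlier results of these data known. Alternatives were quantile normalization and normexp (offset 50) in limma 3.58.1 (R 4.3.3), other scalings, filters and probe rules, and leaving out each array. The spread and detection scripts were tested on simulated data. Some genes, and some of the motifs searched, are not reported here, so counts of motifs cover only those listed. The number of arrays limits the precision.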

Additional observations from a re-analysis of the deposited data

How the results depend on the processing

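No paired analysis was possible because a single group is described. The median SD of log2 level, 0.106, was 0.126 without scaling, 0.0936 with normexp then quantile normalization and 0.157 with no detection filter, and 0.0829 to 0.0936 when 1 array was left out. The 448 genes of 2-fold range became 255 with normexp and 3208 with no detection filter, where faint spots enter, and 242 to 318 when 1 array was left out. A probe's range over fewer arrays cannot exceed its range over all of them, so lower counts were bound to follow. The median SD over fewer arrays is likewise lower under the same noise. Spike-in scaling, on 7 spikes, moved the median SD to 0.139 for proximal tubule S1 and S2 genes and to 0.0927 for respiratory chain genes. Leaving out 1 array gave list medians of 0.0942 to 0.364 for intercalated cell genes, 0.0814 to 0.117 for proximal tubule S1 and S2, 0.0931 to 0.368 for macrophage and neutrophil, 0.176 to 0.919 for hepatocyte and 0.0423 to 0.0678 for respiratory chain genes; the lowest for intercalated, macrophage and neutrophil, and hepatocyte genes were without replicate 3. Without scaling, which moves all genes (60.8% highest and 14.9% lowest on replicate 1), immediate early genes highest on replicate 1 became 14, proximal tubule S3 genes lowest there 3 and gluconeogenesis genes lowest there 2, the last being 4 with normexp (29.0% of all genes). The mean of a gene's probes kept 11 of the 20 brightest genes. The remaining alternatives left these results, the detection counts and the counts of list genes at one end within 1.5 times or within the spread of the leave-one-out values. Those counts under other scalings were added after seeing the data. The spread of the leave-one-out values is a wide limit for lists that rested on replicate 3. It was 0.394 for the hepatocyte median of 0.801, so that 0.619 with normexp lay within it. Values near the floor of detection, which differed between arrays, are the least firm.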
